A study of Schmidtea mediterranea with 2 samples.

Results

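The cells described here are planarian trunk cells from animals with foxA RNA interference (RNAi) that carried transcripts of SMESG000043411.1. They were chosen in the foxA library as barcodes with at least 200 detected genes, at least 2 unique molecular identifiers (UMIs, counted transcript molecules) summed over SMESG000075230.1 and SMESG000068971.1, at least 0.3% of the cell's UMIs from that pair, and at least 1 UMI of SMESG000043411.1. This gave 160 of the 6781 kept cells of the foxA library, or of 12759 kept cells in both libraries. Cells that passed the rule on the pair are called pair cells. Pair cells with SMESG000043411.1 are called positive and those without it negative. The values of these 3 genes chose the cells, so their levels are descriptions.

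The study sequenced 2 single-cell libraries of Schmidtea mediterranea, genotype CIW4, 1 from animals given control RNAi and 1 from animals given FoxA RNAi. Each library came from the pooled trunks of 50 animals, with nucleated Calcein-AM-positive cells sorted before loading. The age of the animals and the sequence used as control RNAi were not given in the sources used here. Because there is 1 library per condition, no difference below has a replicate check or a p-value, and the cells do not stand in for replicates. Ranges in parentheses after a value are 95% intervals for counting error alone.

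Planarians replace all their tissues from a population of dividing stem cells, whose progeny are specified by transcription factors. FoxA proteins are forkhead transcription factors. In planarians foxA is known for its requirement in the pharynx, the muscular feeding organ of the trunk, and related genes act in gut development in other animals. The deposited feature table gives identifiers in place of gene names, so no gene below is named or given a role and no cell type is assigned. For the same reason the knockdown of foxA was not analysed here.

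The positive cells were a large share of the pair cells after foxA RNAi and a small share after control RNAi. Of 396 foxA pair cells, 160 were positive, 40.4% (35.5% to 45.4%). Of 400 control pair cells, 14 were positive, 3.5% (1.93% to 5.80%). The pair cells themselves were 5.84% (5.29% to 6.42%) of the foxA cells and 6.69% (6.07% to 7.35%) of the control cells, so the intervals of these 2 shares overlapped. The foxA pair cells were deeper, with a median of 739.5 UMIs per cell against 456.5 in the control library. After every cell was thinned to 400 UMIs, drawn without replacement, SMESG000043411.1 was still found in 118 of 396 foxA pair cells, 29.8% (25.3% to 34.6%), and in 8 of 254 control pair cells, 3.15% (1.37% to 6.11%). Thinning left out 146 shallower control pair cells and 0 foxA pair cells.

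The level of SMESG000043411.1 varied widely among the positive cells. The 160 cells held 575 UMIs of it (529 to 624), from 1 to 16 UMIs per cell with a median of 3. There were 45 cells with 1 UMI, 32 with 2, 24 with 3, 13 with 4, 16 with 5, 21 with 6 to 9 and 9 with 10 or more. In the control library the 14 positive pair cells held 16 UMIs (9.15 to 26.0), with 12 cells at 1 UMI and 2 cells at 2 UMIs. No control cell reached 3 UMIs, whereas 83 foxA pair cells did. Summed over all pair cells, the gene stood at 1656 CPM (counts scaled to a total of 1000000 UMIs per group; 1524 to 1797) in the foxA library and 69.8 CPM (39.9 to 113) in the control library, a log2 ratio of 4.57 (3.86 to 5.39).

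**Figure D1:**
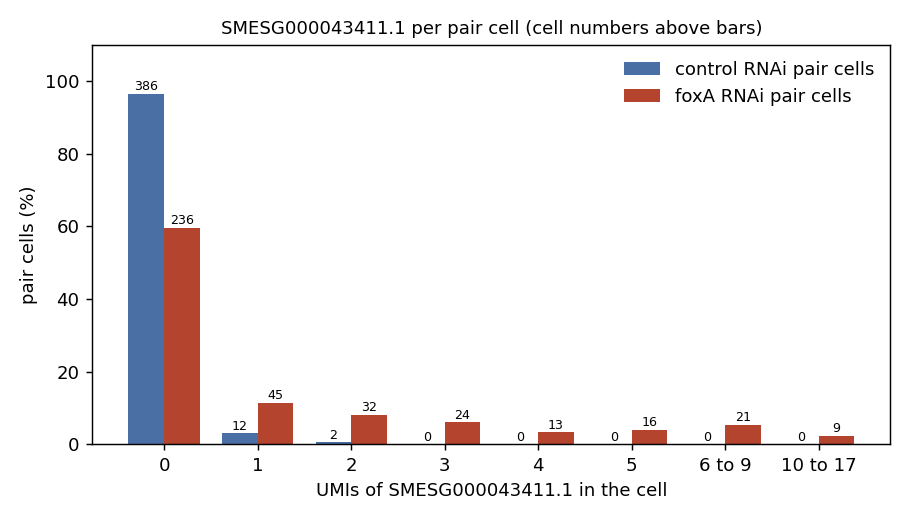
Share of pair cells in percent (vertical axis) by the number of SMESG000043411.1 UMIs in the cell (horizontal axis), for 400 control RNAi and 396 foxA RNAi pair cells, with the number of cells above each bar. In the control library 386 cells had 0 UMIs and no cell had more than 2, while the foxA cells extended up to 16 UMIs.

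The pair rule has thresholds, and SMESG000043411.1 lay on both sides of them. The counts by pair UMIs given here leave the 0.3% threshold aside. Among foxA cells with exactly 2 pair UMIs, 15 of 27 carried it, and with 3 pair UMIs, 19 of 32. Of 37 cells with 2 or more pair UMIs but under 0.3%, and so outside the rule, 18 carried it, 48.6% (31.9% to 65.6%). With 1 pair UMI, also outside the rule, 17 of 86 carried it, 19.8%, and with 0 pair UMIs 42 of 6262 did, 0.671% (0.484% to 0.906%). At the upper end the share was lower again, 30.6% (23.6% to 38.4%) of 160 cells with 10 to 19 pair UMIs and 34.4% (22.7% to 47.7%) of 61 cells with 20 or more. A share also depends on depth, and cells outside the rule were deeper, with a median of 917 UMIs, than the pair cells.

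Positive and negative cells had similar depth. Positive cells had a median of 752 UMIs, with quartiles of 575.5 and 972. Negative cells had a median of 730.5 UMIs, with quartiles of 585 and 1045. After thinning to 400 UMIs the medians were 308 detected genes in positive cells and 306 in negative cells. The pair genes are part of the rule, so their levels are descriptions. SMESG000075230.1 stood at 6938 CPM in positive cells and 10678 CPM in negative cells after thinning, a ratio of 0.650 (0.580 to 0.727). SMESG000068971.1 stood at 6063 CPM and 6441 CPM, a ratio of 0.941 (0.827 to 1.07), so its interval spanned 1. In the thinned control pair cells, of which 11 were positive, both ratios lay above 1. They were 1.54 (1.16 to 2.00) for SMESG000075230.1 and 1.46 (1.03 to 2.01) for SMESG000068971.1. At full depth SMESG000075230.1 was at 0.724 (0.668 to 0.783) in foxA and 1.42 (1.16 to 1.73) in control pair cells. SMESG000068971.1 was at 0.902 (0.823 to 0.988) and 1.28 (0.990 to 1.63), so there the control interval spanned 1 and the foxA interval did not.

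Most genes differed little between positive and negative cells. After thinning, 508 genes other than the 3 of the rule had at least 50 UMIs over both groups, and their median log2 ratio of (CPM + 10), positive over negative, was 0.03. The median size of the ratio was 0.30. Past 2-fold, 20 genes were higher in positive cells (3.94% of those tested) and 12 were lower (2.36%), while 476 lay within 2-fold. The added 10 CPM understates the differences of low genes. These are counts of sizes and not of tested changes. With all UMIs in place of 400 per cell, 1306 genes reached 50 UMIs, of which 38 were 2-fold higher (2.91%) and 37 lower (2.83%). These included 13 of the 20 higher and 6 of the 12 lower genes. The 7 higher genes that fell short had thinned log2 ratios between 1.01 and 1.24, and the 6 lower genes between -1.17 and -1.02, so the genes near the 2-fold line are the least certain.

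**Figure D2:**
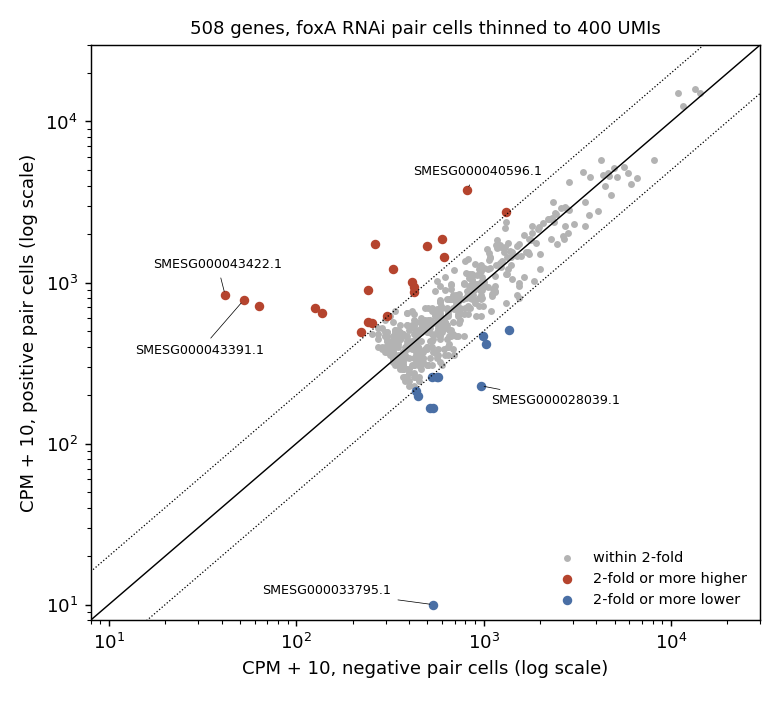
CPM + 10 of 508 genes in negative (horizontal axis) and positive (vertical axis) foxA RNAi pair cells, each cell thinned to 400 UMIs, both axes on a log scale. The solid line marks equal levels and the dotted lines 2-fold. The 20 higher genes include SMESG000043422.1 and SMESG000043391.1, and the point at the bottom, SMESG000033795.1, was at 0 UMIs in positive cells.

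The highest ratios belonged to genes that were near absent from negative cells. SMESG000043422.1 had 53 thinned UMIs in positive cells, 828 CPM, and 3 in negative cells, 31.8 CPM, a ratio of 26.1 (8.45 to 130). At full depth it had 105 UMIs in 38 of 160 positive cells and 6 UMIs in 2 of 236 negative cells. SMESG000043391.1 had 49 thinned UMIs, 766 CPM, against 4, 42.4 CPM, a ratio of 18.1 (6.62 to 68.9). At full depth it was found in 45 positive cells and 5 negative cells. Among the positive cells neither gene rested on a single cell: the top cell held 8.57% of the UMIs of SMESG000043422.1 and 15.0% of those of SMESG000043391.1. Among the negative cells 1 cell held 5 of the 6 UMIs of SMESG000043422.1.

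Both genes have identifiers close to that of SMESG000043411.1, and so do others of the group. This was noticed after the values were seen, and the genes named next were chosen then. In the deposited list of features, the 41 rows around and including SMESG000043411.1 (20 before and 20 after it) held 9 other features with at least 50 UMIs over both groups at full depth. Of these 9, 5 were at least 2-fold higher in positive cells, 0 were 2-fold lower, and 4 lay within 2-fold. Over all tested genes 2.91% were higher. The 5 reached 50 UMIs only through the positive cells and the window was chosen with the values known, so this is a description. Below the floor features lay in both directions. In positive and negative cells SMESG000043462.1 had 5 and 34 UMIs and SMESG000043428.1 had 15 and 7. Besides SMESG000043422.1 and SMESG000043391.1, the 5 were SMESG000043423.1, SMESG000043393.1 and SMESG000043388.1.

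SMESG000043423.1 had 68 UMIs in 22 positive cells and 4 UMIs in 4 negative cells at full depth. SMESG000043393.1 had 91 UMIs in 56 positive cells and 14 UMIs in 10 negative cells. SMESG000043388.1, the most abundant of the 5, had 199 UMIs in 90 positive cells, 1459 CPM, and 33 UMIs in 23 negative cells, 156.5 CPM. The 6308 foxA cells that failed the pair rule and had no UMI of SMESG000043411.1 held 32 UMIs of the 5 in all, 4.32 CPM. The 77 foxA cells that failed the pair rule but carried SMESG000043411.1 held 230 UMIs of them, 2487 CPM. The 5 lay 5 and 6 rows before and 9, 10 and 11 rows after SMESG000043411.1. The 4 features within 2-fold lay 9, 11 and 12 rows before it and 18 rows after it. SMESG000043435.1, the nearest of these, had 419 UMIs in positive and 1011 UMIs in negative cells, a log2 ratio of -0.64 (-0.81 to -0.48). The files used here give no coordinates or sequences. Whether the row order is genome order, and whether near-identical copies shared reads, was not tested.

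**Figure D3:**
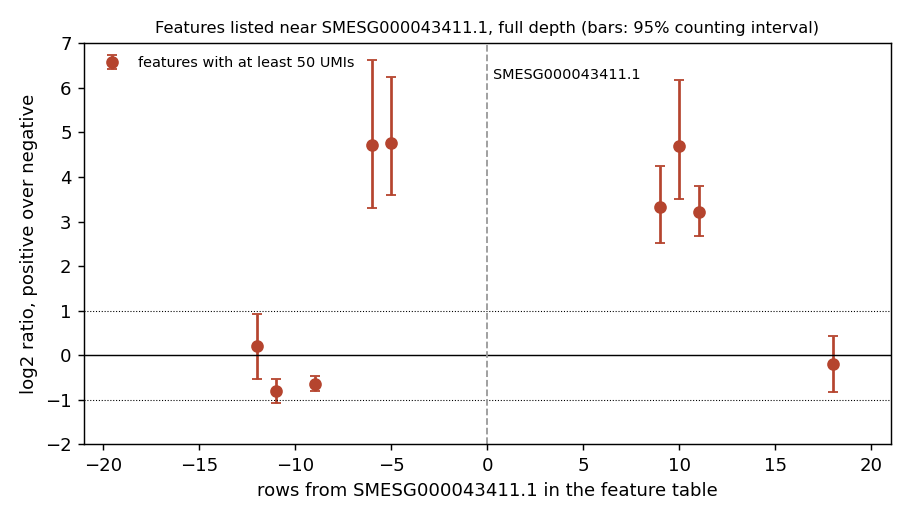
Log2 ratio of CPM, positive over negative foxA RNAi pair cells at full depth (vertical axis), for the 9 features with at least 50 UMIs listed within 20 rows of SMESG000043411.1, by rows from it (horizontal axis). Bars are 95% counting intervals, dotted lines mark 2-fold and the dashed line marks SMESG000043411.1 itself. The 5 high features lie 5 and 6 rows before it and 9 to 11 rows after it.

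In most positive cells SMESG000043411.1 was found together with at least 1 of these 5 genes. The 5 were picked for being higher in these same positive cells than in the negative cells, so that contrast is a description. At full depth 113 of 160 positive cells, 70.6% (62.9% to 77.6%), had a UMI of at least 1 of them and 70 had at least 2 of the 5. Of the negative cells, 33 of 236 had at least 1, 14.0% (9.82% to 19.1%), and 9 had at least 2. In the 6308 foxA cells outside the pair rule without SMESG000043411.1, at a deeper median of 917 UMIs, the share was 0.412% (0.269% to 0.603%). The share in negative cells was therefore above that in cells outside the rule without SMESG000043411.1.

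The most abundant of the 20 higher genes, SMESG000040596.1, is listed elsewhere and was also singled out after its values were seen. It had 470 UMIs in 130 of 160 positive cells and 137 UMIs in 68 of 236 negative cells. After thinning it stood at 3766 CPM in positive and 805 CPM in negative cells, a ratio of 4.68 (3.60 to 6.14). It was found in 81.2% of positive cells, 28.8% of negative cells and 0.365% of the foxA cells outside the pair rule without SMESG000043411.1. Over the 20 higher genes, the share of positive cells with a UMI ranged from 21.9% to 81.2% with a median of 38.4%. In negative cells that share ranged from 0.847% to 42.8% with a median of 19.1%.

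At 400 UMIs per cell and the floor of 50 UMIs, fewer genes were lower in positive cells than higher. The counts were 18 lower and 16 higher with 600 UMIs per cell, and 37 and 38 with all UMIs. Some of the lower genes rested on few cells. With another random draw of the 400 UMIs, 4 of the 12 again reached both 50 UMIs and 2-fold, against 13 of the 20 higher genes. SMESG000033795.1 had the lowest ratio, with 0 thinned UMIs in positive cells and 50 in negative cells, at least 11.3-fold lower taking 3 UMIs as the limit that a count of 0 allows over the group. At full depth its 85 UMIs lay in only 3 of 236 negative cells, which held 15, 21 and 49 of them, and without these 3 cells both groups were at 0. At that frequency its absence from 160 positive cells says little about them. SMESG000028039.1 had 14 thinned UMIs in positive cells, 219 CPM, and 90 in negative cells, 953 CPM, a ratio of 0.229 (0.121 to 0.405). At full depth it was found in 5 positive cells and in 28 negative cells, where 1 cell held 21 of the 30 UMIs of the positive cells and 1 cell held 45 of the 187 UMIs of the negative cells. SMESG000030598.1, the most abundant of the 12 and singled out after its values were seen, was more widely spread. It had 84 UMIs in 37 positive cells, 616 CPM, and 286 UMIs in 82 negative cells, 1357 CPM. Its thinned log2 ratio of -1.42 was not stable. It was within 2-fold with another random draw, at -0.85, and with 600 UMIs per cell, at -0.90.

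Within the foxA pair cells these genes went along with the number of SMESG000043411.1 UMIs. The genes were picked from the same cells, so this is a description. The 16 higher genes other than the listed neighbours summed to 6811 CPM after thinning in cells with 0 UMIs of SMESG000043411.1. They summed to 11722 CPM (10194 to 13415) at 1 UMI, 13594 CPM (11649 to 15770) at 2 UMIs, 24481 CPM (22420 to 26681) at 3 to 5 UMIs and 30583 CPM (27534 to 33878) at 6 or more. The intervals at 1 and 2 UMIs overlapped each other and lay below those at 3 or more. The 5 neighbours summed to 403 CPM at 0 UMIs, 1611 CPM at 1, 3906 CPM at 2, 6226 CPM at 3 to 5 and 6917 CPM at 6 or more. The lower genes without SMESG000033795.1, 11 in all, went from 7839 CPM at 0 UMIs to 3611 CPM at 1 UMI. They then lay between 2333 and 3160 CPM, with overlapping intervals. Median depth was 730.5 UMIs in cells with 0 UMIs of the gene, 752 with 1, 769 with 2, 662 with 3 to 5 and 838.5 with 6 or more.

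**Figure D4:**
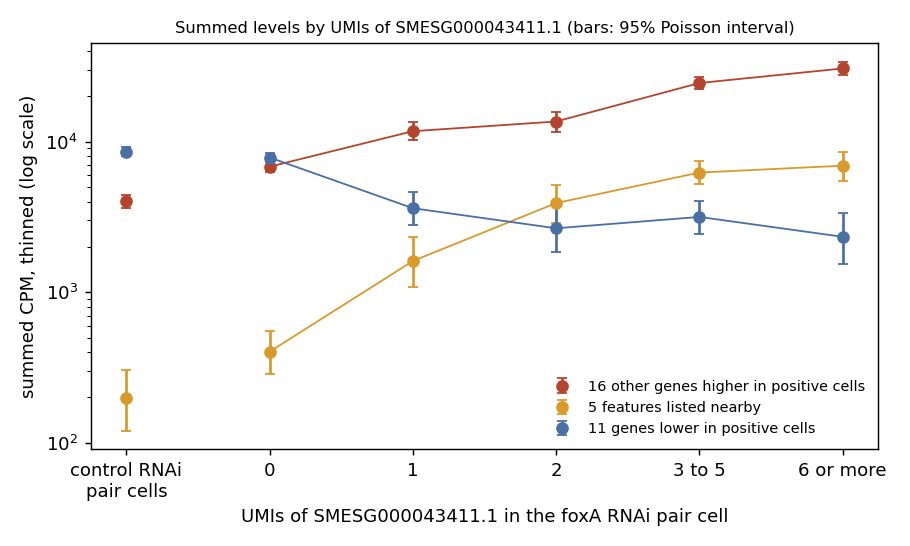
Summed CPM after thinning to 400 UMIs (vertical axis, log scale) by the number of SMESG000043411.1 UMIs in foxA RNAi pair cells (horizontal axis), with all control RNAi pair cells at the left. Bars are 95% Poisson intervals. The 16 other higher genes extend from 6811 to 30583 CPM, the 5 features listed nearby from 403 to 6917 CPM, and the 11 lower genes from 7839 to 2333 CPM.

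The ratios that chose these genes did not use the control library, and in its few positive cells the summed levels lay in the same direction. In 11 positive control pair cells that could be thinned, the 20 higher genes summed to 10000 CPM (7266 to 13425). In 243 negative control pair cells they summed to 3940 CPM (3556 to 4355). The intervals did not overlap, but they leave out the spread between cells. The 12 lower genes summed to 4091 CPM (2425 to 6465) in the positive and 9095 CPM (8505 to 9714) in the negative control cells. At full depth SMESG000040596.1 had 13 UMIs in 7 of the 14 positive control cells and 53 UMIs in 41 of 386 negative ones, a ratio of CPM of 6.55 (3.27 to 12.2). SMESG000043422.1 had 5 UMIs in 4 positive control cells and 10 UMIs in 8 negative ones, a ratio of 13.3 (3.58 to 42.9). SMESG000043391.1 was at 0 UMIs in the positive and 1 UMI in the negative control cells, too few to compare. The positive control cells were deeper, at a median of 597 UMIs against 454, before thinning.

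Set beside the control pair cells, the foxA negative cells had a median level of the higher genes between theirs and that of the positive cells. The choice of the 20 genes fixed that negative cells lie below positive cells. In negative cells 15 of the 20 lay above the control pair cells, against 333 of the 508 tested genes, so that count was not far from the background. By 2-fold or more, 10 of the 20 (50.0%) and 32 of the 508 (6.30%) were higher in negative than in control pair cells. The 508 include the 20. The median level of the 20 higher genes after thinning was 875 CPM in foxA positive cells, 275 CPM in foxA negative cells and 138 CPM in control pair cells. The median of the 12 lower genes was 234 CPM, 540 CPM and 541 CPM in the same order. These comparisons share cells and are given side by side only. Between foxA negative and control pair cells, 656 genes had at least 50 thinned UMIs, of which 19 were 2-fold higher (2.9%) and 15 lower (2.29%). SMESG000049184.1, a member of the 20, had the highest ratio there. It had 119 thinned UMIs in positive cells, 1859 CPM, 56 in negative cells, 593 CPM, and 12 in control pair cells, 118 CPM.

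SMESG000043411.1 also occurred in cells that failed the pair rule, and the higher genes in these cells differed with how much of it they held. Outside the rule 77 of 6385 foxA cells carried it, 1.21% (0.953% to 1.50%), with 295 UMIs, or 33.9% of the library's UMIs of the gene. In the control library 1 of 5578 such cells did. The 37 foxA cells outside with 1 UMI held few transcripts of the neighbours, 135 CPM (16.4 to 488), and 2838 CPM (2045 to 3836) of the 16 other higher genes. The 7 cells outside with 2 UMIs held 3571 CPM (1713 to 6568) of the neighbours and 6429 CPM (3810 to 10160) of the 16 others. The 33 cells outside with 3 or more UMIs held 7348 CPM (5959 to 8965) of the neighbours and 26818 CPM (24097 to 29763) of the 16 others. These levels were within the range of positive pair cells with 3 or more UMIs, at 6476 CPM (5639 to 7402) and 26687 CPM (24958 to 28503). The pair itself stood at 1212 CPM (693 to 1968) in those 33 cells. The 37, 7 and 33 cells also differed in median depth, at 1005, 1968 and 776 UMIs. The 11 marker genes of other cell classes, described below, summed to 3041 CPM (2218 to 4068), 5357 CPM (2998 to 8836) and 758 CPM (363 to 1393). Whether these differences bear on the levels was not tested. These cells had no part in choosing the genes, but they come from the same library.

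Clustering the pair cells without the 3 rule genes placed positive cells in every cluster but unevenly. The 396 foxA and 254 control cells that could be thinned gave 7 clusters, numbered by size. In cluster 6, 47 of 49 foxA cells were positive, 95.9% (86.0% to 99.5%), and 42 of the 49 had 3 or more UMIs. This cluster held 29.4% of all positive cells. In the other 6 clusters the share of positive foxA cells ranged from 15.4% to 42.1%. The clustering still used the 20 higher genes, so it was repeated without them, the 12 lower genes and the 5 neighbours. This alternative was chosen after the data were seen. Other genes past 2-fold under the floor of 50 thinned UMIs were not removed. The group of nearly all positive cells was then no longer separate. The highest share was 59.8% (50.8% to 68.4%), in a cluster of 127 foxA cells, followed by a cluster with 34 of 85. The cluster of 127 held 32.1% of the foxA pair cells and 17.7% of the control pair cells.

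**Figure D5:**
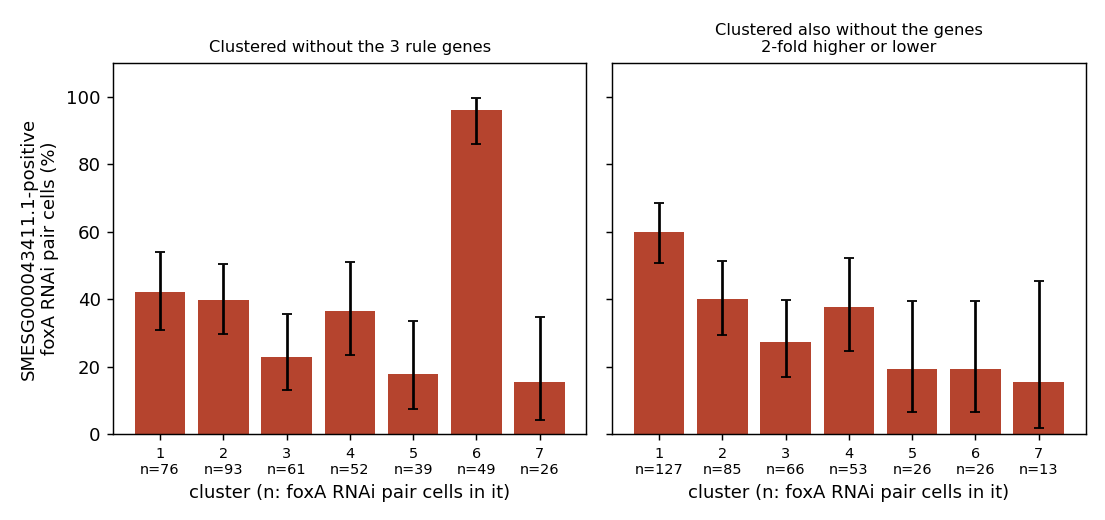
Share of foxA RNAi pair cells positive for SMESG000043411.1 (vertical axis, percent) in each cluster of pair cells (horizontal axis, with the number of foxA cells). The clustering left out the 3 rule genes (left) and also the 20 higher genes, the 12 lower genes and the 5 neighbours (right). Bars show 95% Clopper-Pearson intervals. Cluster 6 at the left reaches 95.9%, and the highest share at the right is 59.8%.

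Marker genes of other cell classes in these libraries were low in positive cells. Of 11 such identifiers, 4 were at 0 UMIs in the positive cells and 5 in the negative cells after thinning. They summed to 719 CPM (526 to 959) in positive cells, 413 CPM (294 to 565) in negative cells and 4188 CPM (4109 to 4268) in foxA cells outside the pair rule. At least 1 UMI of the list was found in 11.2% (6.81% to 17.2%) of positive cells and 6.78% (3.92% to 10.8%) of negative cells, against 49.4% of the cells outside. SMESG000029602.1 gave 19 of the 46 thinned UMIs in positive cells and 2 of 39 in negative cells, and at full depth 1 positive cell held 52 of its 56 UMIs. Without cells that held a UMI of the list, 15 genes were 2-fold higher and 13 lower, and all 15 were among the 20. This setting was added after the data were seen. The 2 libraries had 13 barcodes in common, none among the foxA pair cells and 1 among the control pair cells.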

How the data were processed

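The deposited values were UMI counts per gene and cell barcode, not normalized, as the authors' Cell Ranger wrote them (6.1.2 per the file headers, 7 per the submitters' processing notes). Genome build, annotation and cell calling are not given in the sources used here. Per the labels' protocols, 16S ribosomal molecules were depleted by Cas9 cutting with 30 guides, followed by 10 more PCR cycles, which can shift relative abundance. The control library held 6056 barcodes and 4329019 UMIs and the foxA library 6798 barcodes and 7852495 UMIs. Barcodes with fewer than 200 genes were removed (78 and 17). No doublets were removed. Each cell was thinned to 400 UMIs and counts were summed per group as CPM, tested on simulated data. Genes needed 50 thinned UMIs over both groups. Pair cells were clustered with scanpy 1.11.5 and igraph 0.11.9 (1000 variable genes, 20 components, 15 neighbours, Leiden resolution 0.5). TMM factors came from edgeR 4.0.16. Genes named by rule are the 3 of the rule, the 2 highest and the 2 lowest ratios of each comparison (no annotation being at hand) and 11 class markers. Members and lists were chosen with earlier results of these data known. Intervals are exact (Clopper-Pearson, Poisson, conditional binomial). UMIs of 1 library are not independent samples of the animals.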

Additional observations from a re-analysis of the deposited data

How the results depend on the processing

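The share of positive foxA pair cells was 29.0% when 2 UMIs of SMESG000043411.1 were required and 30.2% when the rule was applied after thinning. Both lower values follow from a stricter rule or fewer UMIs, and the share stayed within its interval under the other 4 settings, as did the log2 ratio of its level (4.16 to 5.27) and the ratio of depths. The count of genes 2-fold higher, 20, was 38 with all UMIs, 80 with at least 20 thinned UMIs per gene, 8 with at least 100 and 10 among cells with at least 500 genes. The count of genes lower, 12, was 37, 98, 4 and 5 under these settings and 20 when 2 UMIs were required. The floor and the cells set how many genes were tested, from 220 to 1565. With 600 UMIs per cell 13 of the 20 and 4 of the 12 again reached 50 UMIs and 2-fold, as with another random draw of 400. In every setting but the floor of 100 UMIs, 5 of the 20 and 1 of the 12 both reached the UMI floor and stayed past 2-fold, among them SMESG000043388.1, SMESG000040596.1, SMESG000049184.1 and SMESG000028039.1. The ratios of SMESG000043422.1 (log2 3.25 to 6.39) and SMESG000043391.1 (2.95 to 6.28) stayed past 2-fold in every setting, so where they are not counted they had too few UMIs. The upper ends, 6.39 and 6.28, came from leaving out negative cells with a UMI of the 5 neighbours. That setting was added after the data were seen. Both genes and SMESG000043388.1 are among the 5, so it brought their counts in negative cells to 0. For these genes its outcome was fixed by the choice of cells and is no test of their ratios. The median size, 0.30, was 0.37 under the floor of 20 UMIs and 0.27 under that of 100. The highest share of positive cells in a cluster, 95.9%, was 50.4% at resolution 0.25 and 80.4% with foxA cells alone. It was 59.8% without the 20 higher genes, the 12 lower genes and the 5 neighbours, a setting added after the data were seen. Other causes of these shifts were not tested. No named gene past 2-fold changed direction in these settings. No paired analysis was possible because the conditions have a single library apiece, which also means that none could be left out. The depth of 400 UMIs per cell limits what a count of 0 in a cell can show.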

Other observations

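Negative pair cells of the foxA library were not uniform. The 33 negative cells with a UMI of the 5 features listed near SMESG000043411.1 held 9091 CPM (7537 to 10870) of the 16 other higher genes after thinning. The 203 negative cells with none of the 5 held 6441 CPM (5901 to 7017). The 47 positive cells with none of the 5 held 11915 CPM (10406 to 13582), and the 113 positive cells with at least 1 held 23164 CPM (21782 to 24610). The 11 lower genes without SMESG000033795.1 went the other way, at 4697 CPM in the 33 negative cells and 8350 CPM in the 203. Their intervals did not overlap, but these cover counting error and not the spread between cells.

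Between foxA negative and control pair cells, the highest ratio after SMESG000049184.1 was that of SMESG000058221.1, at 794 CPM in foxA negative cells and 226 CPM in control pair cells, with 1141 CPM in the positive cells. The lowest ratios were those of SMESG000014460.1 and SMESG000043649.1, both at 0 UMIs in the foxA negative cells. In the control pair cells 1 cell held 174 of the 193 UMIs of SMESG000014460.1 at full depth, and 1 cell held 132 of the 135 UMIs of SMESG000043649.1.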
